A study of Mus musculus with 13 samples.

Results

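Cell cycle genes were followed across the cell types of the mouse liver during cholestatic injury and recovery. The module holds 48 listed genes of the 55353 genes in the count matrices, namely 25 genes used in mitosis, 21 genes used in DNA replication and its preparation, and 2 further genes, Stmn1 and Hmgb2, that are abundant in dividing cells. A cell with at least 1500 unique molecular identifiers (UMIs) was thinned at random to 1500 UMIs and called cycling if it then held at least 3 UMIs summed over 4 of the mitotic members, Mki67, Top2a, Cdk1 and Birc5.

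The 13 libraries are droplet-based 3′ single-cell RNA-seq of liver cells from C57BL/6J mice fed DDC (3,5-diethoxycarbonyl-1,4-dihydrocollidine, 0.1% of the chow), a diet that injures bile ducts, for 3, 5, 9, 19 or 25 days (D3 to D25), from mice at day 0 (D0), and from mice given DDC for 18 days followed by 7 days of recovery (STOP, whose group label gives day 19). Each day from D0 to D25 has 1 library of isolation protocol A and 1 of protocol B, and STOP was isolated with protocol B. Protocol A sorted live single cells, retinoid-autofluorescent cells, Cd31+ Lyve-1- cells and cells positive for Epcam, Pdpn, Lyve-1 or Cd45, and protocol B sorted live cells of a stellate cell preparation, Cd45+ Itgax+ Cd64-, Epcam+ and Cd3e+ Lyve-1- cells, each at equal ratios, so that shares of a cell type were set by the sort and shares within a type are reported. A library is named by its day and protocol, as D0 A, and the group label of D19 B places it at 18 days. D3 and D5 are called onset, and D9, D19 and D25 progression. The labels do not say which mice went into which library, so errors and p-values measure the spread between libraries, which need not be separate animals.

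Cells divide in an ordered cycle in which E2F transcription factors switch on the genes of DNA replication before S phase. The DREAM complex, B-Myb and FoxM1 set the later wave of mitotic genes through a promoter element called the cell cycle genes homology region. Many mitotic promoters also hold a separate element, the CCAAT box. Most cells of an adult liver are out of the cycle, whereas bile duct epithelium is known to proliferate in ductular reactions, and conventional dendritic cells are renewed in part by division within tissues. Neutrophils are end-stage cells that do not divide, and they serve here as the cell type that should lack the module.

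In all, 95563 cells passed the depth limit, 1541 (D3 B) to 14764 (D9 A) per library, from 29307190 to 108602421 UMIs per library. Cells fell into 66 clusters, from which the members had been left out, and 46 clusters were named from marker genes as 22 cell types, with names written as BEC-like for biliary epithelial cells. The 14607 cells of the other 20 clusters stayed unnamed. An automatic Scrublet threshold called 20.9% of cells doublets in D3 B and 2.54% to 12.7% in 4 further libraries, whereas in the other 8 it called almost none and an expected rate of 0.06 was set in its place. Barcodes too shallow to be cells held between 0.0865 (D0 A) and 0.454 (D3 B) UMIs of the 4 call genes per 1500 UMIs, with 0.429 in STOP. No pair of libraries shared more than 49 cell barcodes.

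To show the sequences that set the 2 waves apart, promoters were taken from RefSeq (GRCm38.p6), which held 300 bases around the start for 40 of the 48 members. Each was searched on both strands for TTTGAA, a core of the cell cycle genes homology region, for CCAAT, and for the E2F-type motifs TTTGGCGC, TTTCGCGC, TTTCCCGC and TTTGGCGG, of which TTTGGCGC and TTTCGCGC can overlap on opposite strands. TTTGAA was found in 16 of 21 mitotic and 3 of 18 replication members, against 17.9% of all 32851 promoters. CCAAT was found in 19 of 21 mitotic and 11 of 18 replication members, against 37.4% of all promoters. Both motifs stood in 16 of 21 mitotic and 2 of 18 replication members, against 6.95% of all. Any of the E2F-type motifs stood in 1 of 21 mitotic members (Cdk1) and in 7 of 18 replication members (Cdc6, Cdt1, Mcm3, Mcm5, Mcm6, Mcm7 and Uhrf1), against 2.37% of all. These counts describe letters in a window and not bound sites.

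The 4 call genes, Ccnb2 (cyclin B2, a partner of Cdk1) and the helicase subunits Mcm5 and Mcm6 are shown as examples of both roles, each from 180 to 31 bases before the start, 5′ to 3′ on the strand of the gene, with every searched motif on either strand in capitals (ATTGG is CCAAT on the opposite strand).
Mki67 (chr7:135716410-135716559, minus strand): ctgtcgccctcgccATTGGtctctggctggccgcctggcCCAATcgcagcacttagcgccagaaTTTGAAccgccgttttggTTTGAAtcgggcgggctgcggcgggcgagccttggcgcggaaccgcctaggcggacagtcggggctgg
Top2a (chr11:99024220-99024369, minus strand): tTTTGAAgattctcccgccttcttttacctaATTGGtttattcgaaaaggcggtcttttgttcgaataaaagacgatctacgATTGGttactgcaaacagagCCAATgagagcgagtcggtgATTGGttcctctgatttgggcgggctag
Cdk1 (chr10:69352943-69353092, minus strand): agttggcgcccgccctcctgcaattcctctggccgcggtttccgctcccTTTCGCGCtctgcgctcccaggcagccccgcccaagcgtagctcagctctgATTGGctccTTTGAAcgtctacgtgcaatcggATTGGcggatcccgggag
Birc5 (chr11:117849057-117849206, plus strand): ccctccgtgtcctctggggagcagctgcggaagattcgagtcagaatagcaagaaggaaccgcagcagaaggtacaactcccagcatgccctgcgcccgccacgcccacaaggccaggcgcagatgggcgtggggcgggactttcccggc
Ccnb2 (chr9:70421585-70421734, minus strand): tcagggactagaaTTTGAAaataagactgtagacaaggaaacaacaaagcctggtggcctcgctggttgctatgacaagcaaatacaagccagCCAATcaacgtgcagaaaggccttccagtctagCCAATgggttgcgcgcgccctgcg
Mcm5 (chr8:75109329-75109478, plus strand): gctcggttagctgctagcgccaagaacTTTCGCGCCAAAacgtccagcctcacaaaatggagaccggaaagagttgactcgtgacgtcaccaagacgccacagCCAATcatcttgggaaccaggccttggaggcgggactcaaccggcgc
Mcm6 (chr1:128359736-128359885, minus strand): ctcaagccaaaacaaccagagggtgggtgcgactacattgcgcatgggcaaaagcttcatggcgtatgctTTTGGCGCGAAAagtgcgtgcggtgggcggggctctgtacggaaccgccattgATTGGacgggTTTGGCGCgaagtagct
Mki67, Top2a, Cdk1 and Ccnb2 hold TTTGAA and CCAAT in this window, Mcm5 and Mcm6 hold E2F-type letters and CCAAT without TTTGAA, and Birc5 holds none of the searched motifs.

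Cycling cells were rare and made up 1246 of 95563 cells (1.3%). None of the 4 call genes was seen in 89673 cells, 3915 cells held 1 of their UMIs, 729 held 2 and were just outside the call, and 385 held 3 and were just inside it. Cells called cycling were deeper before thinning, with a median of 12541.5 UMIs against 5351 in other cells, and without thinning 4.21% of cells would have been called. Of cycling cells 7.22% were called doublets, against 6.32% of all cells, and the shares were 8.73% against 13.8% in cDC1-like and 7.28% against 1.72% in cDC2-like cells. With doublets removed, the cycling share in progression minus that in onset was -3.39 percentage points in cDC2-like cells, in place of -4.29. In cDC1-like cells it was -4.18, in place of -4.70. Beyond such alternatives, the part of doublets in the calls was not tested. In neutrophil-like cells the call was met by 5 of 4221 cells (0.118%, exact 95% interval 0.0385% to 0.276%), at a median of 2341 UMIs before thinning. Intervals cover counting error only.

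In cycling cells the members used in the call were high by construction, and their levels are given as mean UMIs per cell of 1500 UMIs and as a description. Top2a (topoisomerase II alpha, which untangles replicated DNA) lay at 2.11 in cycling and 0.0201 in other cells, and Mki67 (a chromosome surface protein of dividing cells) at 1.75 and 0.0210. Birc5 (survivin, of the chromosomal passenger complex) lay at 0.874 and 0.00741, and Cdk1 (the mitotic kinase) at 0.498 and 0.00845. Over libraries Top2a in cycling cells ranged from 1.5 to 2.88 and Mki67 from 0.730 to 2.44. Of all UMIs of a member, the share that fell in cycling cells was highest for Birc5 with 60.9%, Top2a with 58.1% and Kif11 (a spindle motor, not used in the call) with 57.0%.

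Every mitotic member outside the call was also higher in cycling than in other cells, by 5.50-fold (Cenpa) to 100.2-fold (Kif11). Of the 21 replication members 19 were higher, by 1.81-fold (Slbp) to 51.6-fold (Rrm2). Among mitotic members the lowest levels in cycling cells were those of Plk1 (a mitotic kinase) with 0.111, Aurka (the spindle pole kinase) with 0.0899 and Kif20a (a motor of cell separation) with 0.0217. Among replication members the highest were Pcna (the sliding clamp of DNA polymerase) with 0.522, Rrm2 with 0.280 and Rrm1 with 0.274, the last 2 being subunits of ribonucleotide reductase. Pcna was at 0.154 in other cells, so that only 4.27% of its UMIs lay in cycling cells, against 40.5% for Rrm2 and 8.87% for Rrm1. Tk1 (thymidine kinase) lay at 0.00401, and Cdt1 and Gins2, which license and start replication origins, had 0 UMIs in the 1246 thinned cycling cells. Over all thinned cells there were 26 UMIs of Cdt1, 16 of Gins2 and 31 of Tk1, too few to compare any condition. Slbp, the histone stem-loop binding protein, had 2.34% of its UMIs in cycling cells.

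The 2 further members were abundant in cycling cells, Hmgb2 (a chromatin protein) at 3.48 and Stmn1 (a microtubule regulator) at 1.81, but they differed in cells that should not divide. Hmgb2 was at 0.323 in other cells and 1.03 in neutrophil-like cells, of which 56.6% had a UMI, whereas Stmn1 was at 0.0580 and 0.0128. Kif23 (a motor of cell separation) was at 0.340 in cycling, 0.0207 in other and 0.131 in neutrophil-like cells, and Mki67 was at 0.0417 in neutrophil-like cells. Cenpa (the centromeric histone) was at 0.501 in cycling and 0.0910 in other cells, with 6.78% of its UMIs in cycling cells. Hmgb2, Kif23 and Cenpa were thus not particular to cells called cycling. Whether free RNA, annotation or expression gave these UMIs was not tested.

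**Figure D1:**
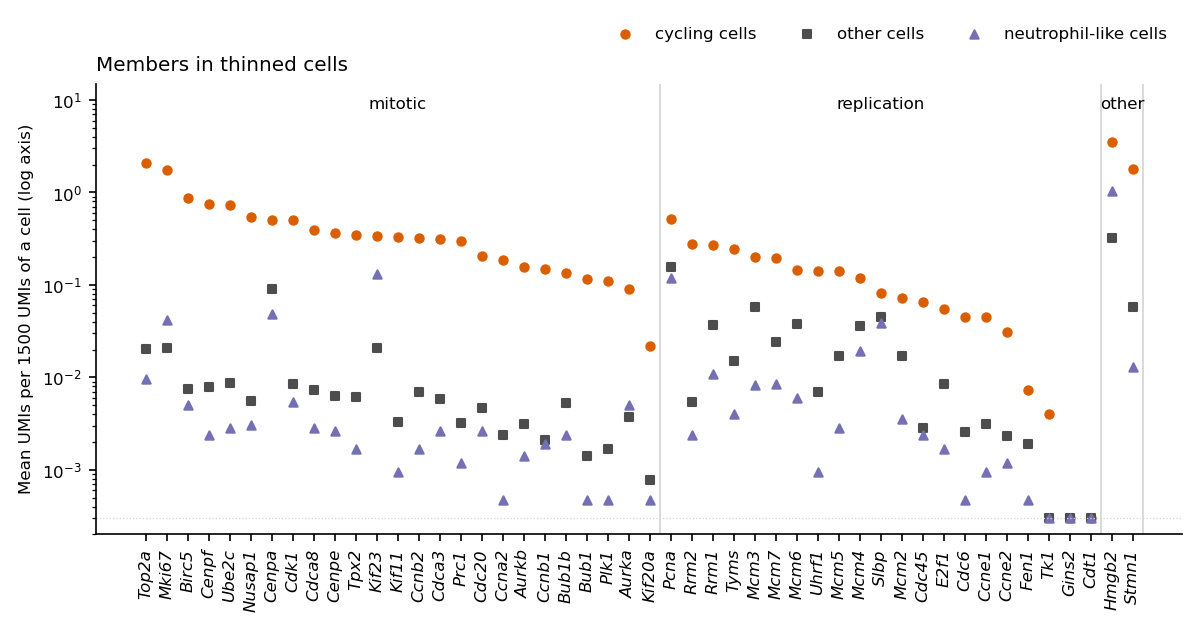
Mean UMIs per 1500 UMIs of a cell (log axis) of the 48 members in cycling cells (circles), other cells (squares) and neutrophil-like cells (triangles), ordered by level within mitotic, replication and other members, with values under 0.0003 drawn at the dotted line. Top2a at 2.11 and Mki67 at 1.75 lead the mitotic members, Pcna at 0.522 the replication members, and Hmgb2 stands at 1.03 in neutrophil-like cells.

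Which lineages held the cycling cells was asked by comparing cell types. The share was highest in cDC1-like cells, type 1 conventional dendritic cells, with 275 of 5526 cells (4.98%, interval 4.42% to 5.58%), followed by cDC2-like cells with 206 of 6122 (3.36%), BEC-like cells with 130 of 5300 (2.45%), NK or ILC1-like cells with 34 of 1712 (1.99%) and stellate or fibroblast-like cells with 30 of 1836 (1.63%). Libraries weigh unequally in these pooled shares, and as means over libraries of at least 50 cells the order was cDC1-like 5.63%, cDC2-like 3.25%, BEC-like 2.64% and NK or ILC1-like 2.48%, the last 3 within 1 SD of each other. The 2 dendritic cell types alone held 22.1% and 16.5% of all cycling cells. Macrophage-like (65 of 7058, 0.921%), Kupffer-like (49 of 5626, 0.871%), CD8 T-like (33 of 4396, 0.751%) and LSEC-like cells (liver sinusoidal endothelium, 127 of 23898, 0.531%) were lower. CD4 T-like cells are left out of this order, since the 10 leading genes of their cluster T8 are mixed. They hold Trgc1, Trgc2 and Trgv2 of the gamma delta T cell receptor, but also Traj18 of the alpha chain and Il4. Cd40lg is the single CD4 marker among them. By cluster the share was 3.89% in T4 (41 of 1055 cells), 3.57% in T21 (5 of 140) and 1.78% in T8 (16 of 901). The 3 clusters together stayed in the adjustments over types below, where they passed no test. CEC-like cells (continuous endothelium, 7 of 4392, 0.159%, interval 0.0641% to 0.328%) and pDC-like cells (plasmacytoid dendritic cells, 2 of 2003, 0.0999%, interval 0.0121% to 0.360%) had intervals that overlapped with that of neutrophil-like cells. Counting up to 3 cells as possible where none was seen, 0 of 350 gamma delta T-like cells allows a share of up to 0.857%, and 0 of 57 basophil or mast-like cells up to 5.26%. Of the remaining types, other T-like cells had 1.55%, hepatocyte-like cells 0.884%, mature DC-like cells 0.878%, lymphatic endothelial-like cells 0.647%, mesothelial-like cells 0.438%, monocyte-like cells 0.241% and B-like cells 0.235%. The unnamed cells had 1.23% and held 179 cycling cells.

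Because libraries are sorted mixtures, each type was also set against the other named cells of the same library. These other cells are a sorted mixture too, so their cycling share, and with it the size of each difference, depends on the sort. Their mean share was 1.31% in the comparison of cDC1-like cells and 2.05% in that of pDC-like cells, so types do not share a common reference. The test was an exact two-sided sign-flip permutation test over libraries with at least 50 cells of the type, with Benjamini-Hochberg adjustment over 20 types. cDC1-like cells lay above the other cells in 10 of 10 libraries, with a mean of 5.63% ± 3.77 (SD) against 1.31% (difference 4.32 percentage points, p = 0.00195, the smallest possible, adjusted p = 0.0179). Neutrophil-like cells lay below in 10 of 10 (difference -1.25, adjusted p = 0.0179), LSEC-like cells in 12 of 13 (difference -0.930, adjusted p = 0.0179), CEC-like cells in 8 of 9 (difference -0.919, adjusted p = 0.0312) and pDC-like cells in 8 of 8 (difference -2.01, adjusted p = 0.0312). These 5 of 20 types passed. cDC2-like cells were above in 6 of 11 libraries (difference 1.79, p = 0.0352, adjusted p = 0.100 by the same exact test), and BEC-like cells in 7 of 10 (difference 1.26, adjusted p = 0.208). Without thinning both passed (cDC2-like 5.36, adjusted p = 0.00977, and BEC-like 6.24, adjusted p = 0.0279, same exact test), and cDC2-like cells also passed with at least 20 cells per library (2.74, adjusted p = 0.0342) and BEC-like cells at Leiden resolution 1 (1.61, adjusted p = 0.0391). Of the 5 calls, only that of cDC1-like cells held under every alternative run. With Cenpf, Tpx2, Nusap1 and Cdca8 as call genes LSEC-like (-0.241, adjusted p = 0.175), CEC-like (-0.164, adjusted p = 0.764) and pDC-like cells (-0.752, adjusted p = 0.0625) no longer passed the exact test, and with at least 5 UMIs per call the same 3 types did not pass. At 3000 UMIs neutrophil-like cells did not pass (-1.58, adjusted p = 0.104), and with another thinning seed or at least 20 cells CEC-like cells did not. The count of 5 fell to 3 without D5 B, D9 A or D19 B and to 4 without any other library. For pDC-like cells the exact sign-flip p without D0 B was 0.0156 (adjusted p = 0.0625). That is the smallest p possible with 1 of their 8 libraries left out, so the loss of this call follows from the number of libraries. The share also follows depth, since without thinning 15% of cDC1-like, 9.49% of cDC2-like, 9.32% of BEC-like, 5.21% of Kupffer-like and 0.284% of neutrophil-like cells would be called.

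**Figure D2:**
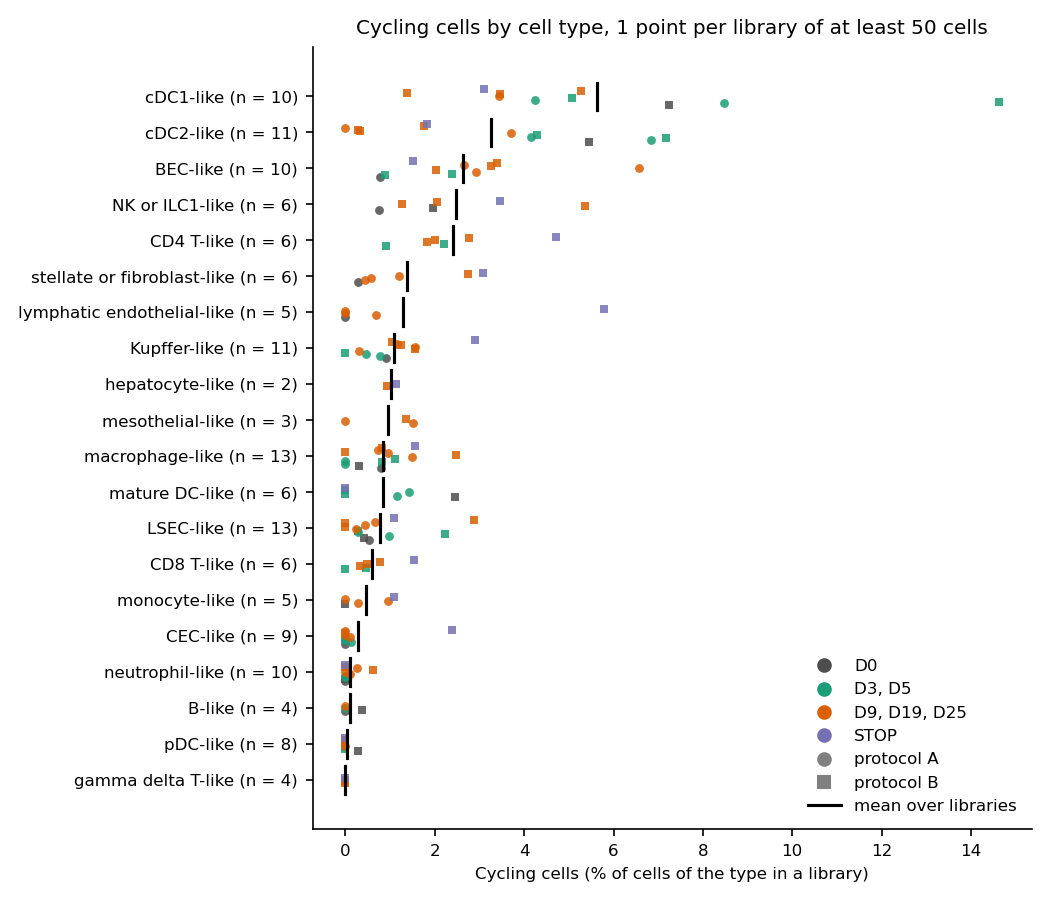
Share of cycling cells (% of cells of a type, x axis) by cell type, with 1 point per library of at least 50 cells, coloured by stage and shaped by protocol, and a bar at the mean over n libraries. cDC1-like libraries sit between 1.37% and 14.6%, all above the other cells of their library, and neutrophil-like libraries between 0% and 0.610%.

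The time course of each type was then followed by library. In cDC1-like cells the share was 7.24% in D0 B (81 of 1119 cells), 8.47% in D3 A, 14.6% in D3 B, 4.24% in D5 A, 5.08% in D5 B, 3.45% in D9 A, 3.47% in D9 B, 1.37% in D19 B and 5.26% in D25 B. It was thus highest at D3 and lowest at D19, and D25 B overlapped with both D5 libraries. D3 B, the highest, held only 123 cDC1-like cells (interval 8.91% to 22.1%) and had 20.9% doublets and the most UMIs of the call genes in shallow barcodes. The part of the shallow barcodes in the value was not tested, and doublets were removed only in the alternative given above. The type spans clusters 4 and 24, and D0 B had 1056 of its 1119 cells in cluster 4, where 79 were cycling. In protocol A most cells lay in cluster 24, with 147 of 236 in D3 A, 287 of 519 in D5 A and 91 of 174 in D9 A. The DDC libraries of protocol B lay mainly in cluster 4, such as 619 of 866 cells in D5 B. In cDC2-like cells the share was 5.44% in D0 B (49 of 900 cells), 6.83% in D3 A, 7.18% in D3 B, 4.14% in D5 A, 4.29% in D5 B, 3.70% in D9 A, 0.318% in D9 B, 0.281% in D19 B, 0% in D25 A (0 of 56 cells, which allows up to 5.36%) and 1.76% in D25 B. All 5 progression libraries were below all 4 onset libraries. Of the 900 cells in D0 B, 814 lay in cluster 32, among whose leading genes is the replication factor Pclaf. Most cells of each DDC library lay in cluster 3, from 127 of 161 in D3 A to 56 of 56 in D25 A. In cluster 3 D0 B had 9.30% cycling cells (8 of 86).

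Progression was compared with onset by exact two-sided permutation of libraries within protocol, averaged over protocols and adjusted over 11 types. In cDC2-like cells the mean went from 5.61% ± 1.62 (SD, n = 4) to 1.21% ± 1.55 (SD, n = 5), a difference of -4.29 percentage points that lay outside the spread between libraries and had the smallest p the design allows (exact permutation p = 0.0167), but not after adjustment (adjusted p = 0.183). The difference was -3.64 within protocol A, where progression was D9 A (3.70%) and D25 A (0 of 56 cells), and -4.95 within protocol B. With Cenpf, Tpx2, Nusap1 and Cdca8 as call genes it was -1.19, the smallest of its 9 alternatives, all of them below 0. In cDC1-like cells the mean went from 8.11% ± 4.72 (SD, n = 4) to 3.39% ± 1.59 (SD, n = 4), a difference of -4.70 with an exact permutation p of 0.100 (adjusted p = 0.367). It was -2.91 within protocol A, where D9 A was the only progression library, and -6.49 within protocol B. Without D3 B the cDC1-like difference was -2.31. None of the 11 types passed after adjustment, and 1 of them, cDC2-like cells, had an unadjusted p under 0.05. The smallest possible p of this exact test ran from 0.01 (LSEC-like and macrophage-like cells) to 0.1 (such as BEC-like cells). With these limits no type could pass after adjustment, at any size of difference.

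In BEC-like cells the values ran in the other direction, without passing a test. Their share was 0.771% in D0 A (6 of 778 cells), 0.893% in D3 B (1 of 112), 2.38% in D5 B (7 of 294), 2.91% in D9 A (42 of 1441), 2.03% in D9 B, 6.58% in D19 A (5 of 76), 3.27% in D19 B, 2.65% in D25 A (33 of 1245) and 3.39% in D25 B. D0 A and D3 B were the lowest, and every library from D5 on was above both. The clusters differed as well, since 695 of 778 cells in D0 A and 64 of 112 in D3 B lay in cluster 30, and later libraries lay mainly in clusters 16 and 23. Cluster 42, with a median of 2096 UMIs, came to 94.1% from D9 A. It held 492 of the 1441 BEC-like cells of D9 A, of which 0 were cycling. Within cluster 30 the share was 0.576% in D0 A, 1.56% in D3 B, 7.41% in D9 A (6 of 81 cells) and 0% in STOP (0 of 134). Within protocol A the 3 DDC libraries had a mean of 4.05% ± 2.20 (SD) against the single D0 library (difference 3.28, exact permutation p = 0.50, where 0.25 is the smallest possible). Within protocol B, progression was at 2.90% ± 0.752 (SD, n = 3) and onset at 1.64% ± 1.05 (SD, n = 2), a difference of 1.26 (exact permutation p = 0.30, where 0.100 is the smallest possible, adjusted p = 0.629), and with clusters of a coarser resolution the difference turned to -0.50. The design could therefore not call BEC-like cells at any size of difference.

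Kupffer-like cells, the resident macrophages of the sinusoid, had 0.899% in D0 A, 0.776% in D3 A, 0.457% in D5 A, 0% in D5 B (0 of 121 cells, which allows up to 2.48%), and in the 6 progression libraries between 0.295% (D9 A) and 1.56% (D9 B and D19 A). Progression was at 1.14% ± 0.47 (SD, n = 6) and onset at 0.411% ± 0.390 (SD, n = 3), and 5 of 6 progression libraries were above all onset libraries (difference 0.832, exact permutation p = 0.0750, adjusted p = 0.367). It was 0.385 without D5 B. LSEC-like cells had between 0% (D9 B and D19 B) and 2.87% (D25 B), with the D0 libraries at 0.53% (A) and 0.427% (B) and values of DDC libraries both above and below these (difference 0.321, exact permutation p = 0.861). LSEC-like and Kupffer-like shares overlapped between stages.

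Between DDC and D0, 0 of 14 types passed the exact permutation test after adjustment and 0 had an unadjusted p under 0.05. For cDC1-like cells the difference within protocol B was -1.27 (p = 0.833) and for cDC2-like cells -2.68 (p = 0.667) by this exact test, each against 1 D0 library and with 0.167 as the smallest possible p. For 11 of the 14 types D0 has a single usable library, so a missed threshold does not show that shares were equal. The lowest p that any type could reach by this exact test was 0.0278 (LSEC-like and macrophage-like cells). No type could therefore pass the adjustment over 14 types, at any size of difference. Whether the change from onset to progression differed between types was asked for 12 pairs, and 0 passed after adjustment. The cDC2-like change was below that of LSEC-like cells by 4.06 and below that of macrophage-like cells by 4.91 percentage points, each at the smallest exact permutation p of 0.0167 and an adjusted p of 0.100.

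**Figure D3:**
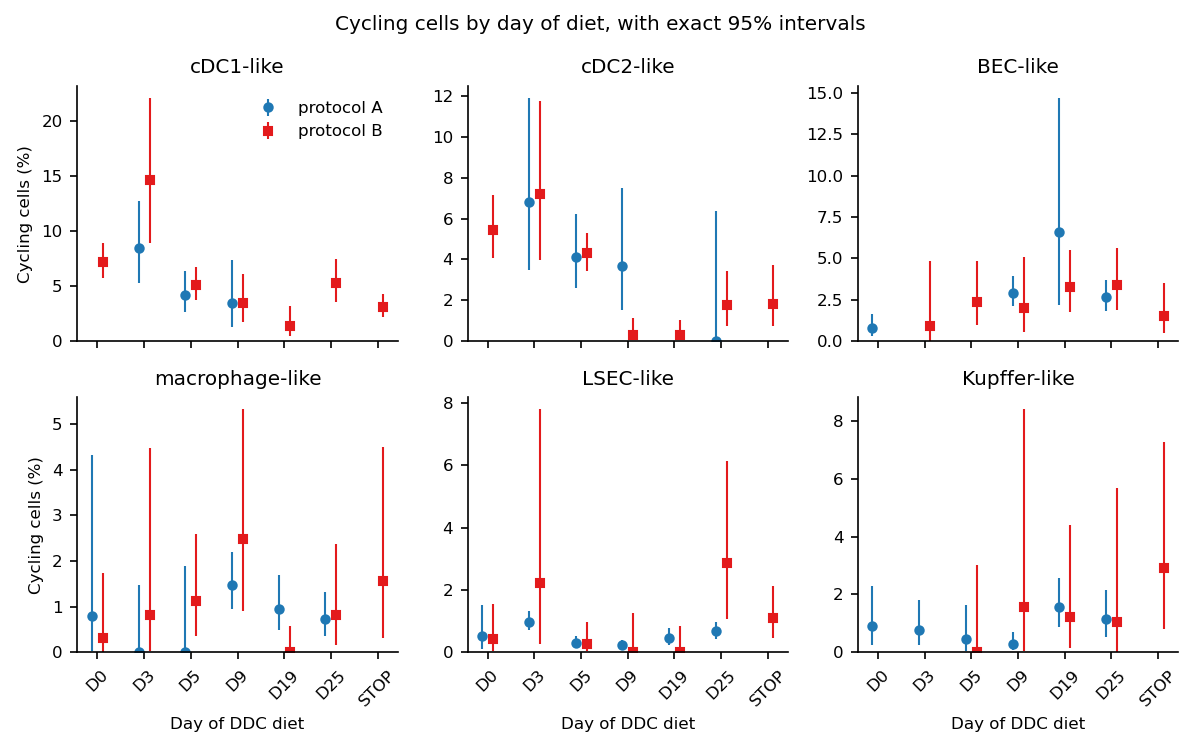
Share of cycling cells (%) by day of DDC diet and after recovery (STOP) for 6 cell types, 1 point per library of at least 50 cells with its exact 95% interval, circles for protocol A and squares for protocol B. cDC2-like cells lie between 4.14% and 7.18% at D3 and D5 and between 0% and 3.70% from D9 on, BEC-like cells lie above 0.893% from D5 on, and macrophage-like cells between 0% and 2.48%.

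After 7 days of recovery the STOP library, which has no replicate, was set beside the other libraries with at least 50 cells of a type. CD8 T-like cells were at 1.55% (16 of 1035, interval 0.886% to 2.50%), against 0% to 0.768% in 5 libraries of protocol B. Most of them were in cluster T7, where the share was 4.45% in STOP (11 of 247 cells), 4.71% in D5 B (4 of 85), 1.85% in D19 B, 1.53% in D25 B and 1.18% in D9 B, and 489 cells of STOP were in cluster T14, which holds few cells of other libraries. Within T7, STOP was thus not the highest library. In cluster T4, which is led by Cd40lg, Trat1 and Cd4, the share was 5.36% in STOP (20 of 373 cells), 5.62% in D5 B (5 of 89), 4.21% in D9 B, 3.03% in D25 B, 2.43% in D19 B and 0% in D3 B (0 of 51). In cluster T8 STOP was the highest at 3.96% (11 of 278 cells), against 2.30% in D25 B, 1.72% in D3 B and 0% in D5 B, D9 B and D19 B. Stellate or fibroblast-like cells were at 3.08% (16 of 519, interval 1.77% to 4.96%), against 2.75% in D25 B (10 of 364) and 0.276% to 1.19% in 4 libraries of protocol A. STOP and D25 B had 493 and 321 of these cells in cluster 28, whereas D0 A had 247 of 362 in cluster 40. BEC-like cells (1.52%, 5 of 329, interval 0.495% to 3.51%) were below D19 B and D25 B in value. cDC1-like cells (3.09%, 36 of 1164, interval 2.18% to 4.26%) were below D0 B (7.24%) and D25 B but above D19 B (1.37%). cDC2-like cells (1.83%, 7 of 382) were near D25 B (1.76%), above D19 B (0.281%) and below D0 B (5.44%). NK or ILC1-like cells were at 3.47% (12 of 346), with 1.27% in D19 B, 2.05% in D25 B and 5.36% (3 of 56 cells) in D9 B. STOP was the highest of these libraries for Kupffer-like (2.90%, 4 of 138 cells), CEC-like (2.38%, 3 of 126 cells) and lymphatic endothelial-like cells (5.80%, 4 of 69 cells), each on few cells. The clusters of NK or ILC1-like cells differed too, with 130 of 133 cells of D0 A in T15 and 332 of 346 of STOP in T0. Shallow barcodes of STOP held 0.429 UMIs of the call genes per 1500, second only to D3 B, and their part in these values was not tested. No test was made for STOP, and without thinning the cDC1-like share was 11.7% and the stellate or fibroblast-like share 11.9%.

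Within cycling cells the balance of the 2 waves is given by type as a description, pooled over libraries. In types with at least 20 cycling cells, the ratio of replication to mitotic UMIs was lowest in stellate or fibroblast-like (0.142), BEC-like (0.153) and LSEC-like cells (0.184), between 0.220 and 0.232 in cDC1-like, macrophage-like and cDC2-like cells, and highest in NK or ILC1-like (0.280), CD8 T-like (0.336) and Kupffer-like cells (0.393). Stellate or fibroblast-like cells held 17.9 mitotic and 2.53 replication UMIs per cycling cell, and Kupffer-like cells 8.04 and 3.16. The call itself uses 4 mitotic genes, so that cells in S phase with few mitotic UMIs are missed. Over libraries with at least 20 cycling cDC1-like cells the ratio was 0.189 in D0 B, 0.188 in D3 A, 0.153 in D5 A, 0.214 in D5 B, 0.307 in D25 B and 0.410 in STOP. It was 0.168 in D0 B, 0.313 in D5 A and 0.236 in D5 B for cDC2-like cells, and 0.152 in D9 A and 0.171 in D25 A for BEC-like cells. The range over libraries of 1 type was therefore as wide as that between types, and types draw their cycling cells from different libraries, such as 12 of 34 in STOP for NK or ILC1-like and 5 of 130 for BEC-like cells.

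Levels of single members in the cycling cells of each type are given as a description, pooled over libraries. Of the 48 members, most mitotic ones were highest in cycling stellate or fibroblast-like cells. Among these were Prc1 (which bundles the central spindle), Tpx2 (a spindle assembly factor), Nusap1 (a spindle-associated protein) and Cdk1. They lay at 1.17, 0.70, 0.967 and 1.13 UMIs per thinned cell, against their lowest type with 0.102, 0.143, 0.245 and 0.273. Cenpf (a kinetochore protein) was highest in LSEC-like cells at 1.52 and lowest in Kupffer-like cells at 0.286. Pcna was highest in Kupffer-like cells at 1.04 and lowest in cDC1-like cells at 0.316. Of the 30 cycling stellate or fibroblast-like cells 16 came from STOP and 10 from D25 B, and over libraries with all types pooled Pcna ranged from 0.276 to 1.18, Cdk1 from 0.288 to 0.917 and Cenpf from 0.391 to 1.13, so that type and library cannot be told apart in these levels.

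To ask whether members changed over whole cell types, UMI counts were summed per library and type and tested by edgeR's quasi-likelihood test with isolation protocol as a term and Benjamini-Hochberg adjustment over all genes. Between 41 and 46 of the 48 members passed the filter on low counts in each of 6 types. In such sums, fewer cycling cells and less RNA per cycling cell cannot be told apart. Changes are log2 fold changes ± SE, and DDC is the mean of onset and progression. D0 rests on D0 B alone for both dendritic cell types and on D0 A alone for BEC-like and Kupffer-like cells, so that in these types the error and p of DDC against D0 rest on the spread of the DDC libraries, and the lone D0 library is assumed to vary like them.

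In cDC2-like cells summed over both clusters, 12 of 45 members tested fell under DDC and 0 rose, relative to the single library D0 B, and within cluster 3 alone none was called. The 12 stand beside 6.39% of all 12150 genes called lower and 3.71% called higher, and the median change was -1.36 against -0.04 over all genes. The 12 were the mitotic members Cdk1, Ccnb2, Bub1, Aurkb, Nusap1, Cdca8 and Prc1, the replication members Mcm4, Tyms, Rrm2 and E2f1, and Stmn1, and 44 of 45 values were below 0. By role, 7 of 25 mitotic members (median -1.72), 4 of 18 replication members (median -0.84) and 1 of the 2 further members passed. D0 B has 814 of its cDC2-like cells in cluster 32 and 86 in cluster 3, and the latter hold 421534 UMIs. In a fit to cluster 3 alone, chosen after seeing the data, edgeR called 0 of 45 members and 18 of 11434 genes, all 18 lower. In that fit 2 members had an unadjusted p under 0.05, 24 lay below 0, and the median was -0.12 beside 0.17 over all genes. Rrm2 (0.29), Ccnb2 (0.12) and Birc5 (0.67) had values above 0 there. The part of the 2 clusters in the 12 calls was not tested beyond this fit.

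Rrm2 was at 64.9 CPM (UMIs of the gene scaled to the UMIs of all genes of that type and library) in D0 B, at 33.1, 21.8, 18.8 and 11.3 in D3 A, D3 B, D5 A and D5 B, and at 4.51, 2.91, 1.92, 2.49 and 13 in D9 A, D9 B, D19 B, D25 A and D25 B. D0 B was above every DDC library, and Rrm2 fell by 2.75 ± 0.57 (edgeR adjusted p = 0.0121). Stmn1 was at 511 CPM in D0 B, at 287, 194, 180 and 132 at onset in the same order, and at 113, 21.2, 21.6, 32.4 and 119 in progression. It fell by 2.46 ± 0.61 (edgeR adjusted p = 0.0256), and its onset and progression libraries did not overlap. Nusap1 was at 105 CPM in D0 B, at 75.4, 72.4, 48.4 and 28.5 at onset and at 29.3, 5.13, 3.66, 2.49 and 18 in progression. It fell by 2.36 ± 0.59 (edgeR adjusted p = 0.0260), with D5 B and D9 A at nearly the same level.

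Ccnb2 was at 73.9 CPM in D0 B, at 42.3, 33.4, 21.8 and 20.1 at onset and at 26.3, 5.68, 2.61, 2.49 and 21.9 in progression, and it fell by 2.22 ± 0.63 (edgeR adjusted p = 0.0409). Bub1, a spindle checkpoint kinase, was at 15.8 CPM in D0 B, at 18.4, 10.4, 12.2 and 7.05 at onset and at 6.01, 0.832, 0.696, 0 and 3.42 in progression, and it fell by 2.10 ± 0.56 (edgeR adjusted p = 0.0326). For Bub1, D3 A was above D0 B, so that the groups overlapped. Cdk1 was at 51.6 CPM in D0 B, at 55.8, 35.6, 12.9 and 17.1 at onset and at 7.51, 3.33, 2.79, 4.98 and 12.3 in progression, and it fell by 2.07 ± 0.61 (edgeR adjusted p = 0.0442). D25 A holds 56 cDC2-like cells and 0 to 2 UMIs each of Rrm2, Nusap1, Ccnb2, Bub1 and Cdk1.

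The other call genes did not pass. Mki67 was at 73.1 CPM in D0 B, at 133, 152, 116 and 85.3 at onset and at 138, 38.1, 43.3, 54.8 and 57.5 in progression, with a change of -0.01 ± 0.44 (edgeR adjusted p = 0.990). Unlike Rrm2 or Stmn1, Mki67 was higher at onset than in D0 B in every library, and without TMM its change was 0.39 beside a median of 0.35 over all genes. Top2a changed by -1.61 ± 0.62 (edgeR adjusted p = 0.106) and Birc5 by -1.78 ± 0.67 (edgeR adjusted p = 0.0981).

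The 12 calls depended on single libraries and settings. With libraries of at least 20 cells, the fit that adds D0 A (22 cells) to D0 B and D19 A (29 cells) to progression, 1 of 45 was called lower, beside 0.631% of all genes. DESeq2 called 8 of 45, all lower, beside 5.87% of all genes lower and 6.31% higher. The edgeR calls numbered 3 without D9 B (3.2% of all genes lower) or D19 B (2.38%), 5 without D5 A (3.63%), 6 without D5 B (5.49%), 7 without D25 A (3.88%) and 21 without D25 B (10.7%). They numbered 0 within protocol B alone (1.93%), 4 without TMM (2.29%) and 24 of 48 without the filter on low counts (4.41%), and D0 B could not be left out. Without TMM the median of all genes moved from -0.04 to 0.35 in cDC2-like cells, with 943 genes called higher and 278 lower in place of 451 and 776, and from 0.10 to 0.59 in cDC1-like cells, with 3114 and 358 in place of 1644 and 1432.

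**Figure D4:**
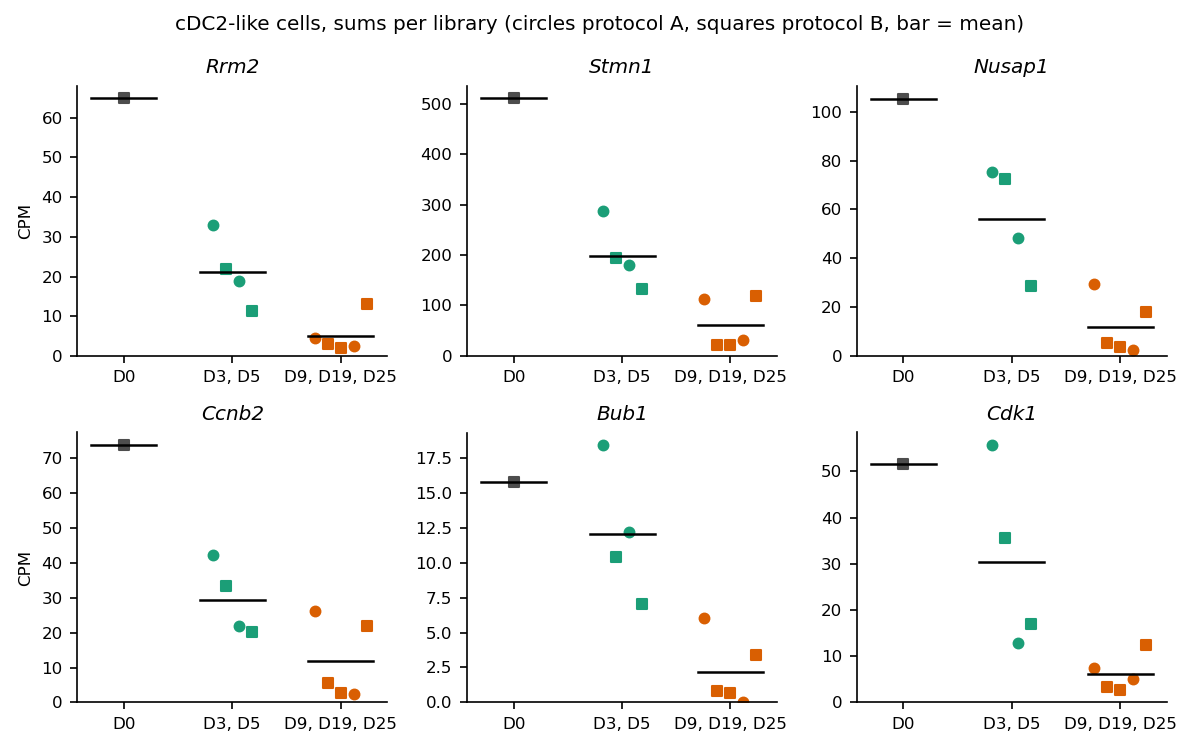
CPM of 6 members in cDC2-like cells summed per library, circles for protocol A and squares for protocol B, with a bar at the mean of D0 (1 library), of D3 and D5 (4 libraries) and of D9, D19 and D25 (5 libraries). Rrm2 stands at 64.9 in D0 B, between 11.3 and 33.1 at onset and between 1.92 and 13 in progression.

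Between onset and progression cDC2-like cells had 0 of 45 members called, where 0% of all genes were called higher and 0% lower. Values below 0 were found for 45 of 45 members, beside 6291 of 12150 genes, and the median was -1.41. An unadjusted edgeR p under 0.05 was found for 40 members, beside 1203 of 12150 genes. Most members were higher in the same cycling cells, so that their values are not independent of each other. DESeq2 called 11 members in the same comparison, all lower, beside 0.7% of all genes called lower and 0.255% higher. The edgeR values lay at -2.16 ± 0.44 for Top2a and -2.16 ± 0.46 for Nusap1, -2.24 ± 0.47 for Prc1 and -2.24 ± 0.46 for Bub1, with a smallest adjusted p of 0.0994. Prc1 went from a mean of 23.4 CPM at onset to 4.37 CPM in progression, and Top2a from 175 to 37.7. Without 1 library the count was 13 without D5 B, 5 without D9 A and 14 without D25 B, beside 126 of 11897, 25 of 12054 and 53 of 12175 genes called lower. In cluster 3 alone edgeR again called 0 of 45, with 40 at an unadjusted p under 0.05, all 45 below 0 and a median of -1.36 beside -0.0095 over all genes.

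In cDC1-like cells 1 of 45 members tested passed between DDC and D0, against 13.2% of all 12432 genes called higher and 11.5% called lower. That member was Ccnb2, at 89.7 CPM in D0 B, at 29.9, 42.7, 25.8 and 21.1 in D3 A, D3 B, D5 A and D5 B, and at 15.2, 27.4, 15.2 and 55.0 in D9 A, D9 B, D19 B and D25 B. D0 B was above all DDC libraries, and Ccnb2 fell by 1.45 ± 0.47 (edgeR adjusted p = 0.0423). The median member changed by -0.68, with 39 of 45 values below 0. The count was 20 without D25 B (18.5% of all genes lower), 2 without D3 B (9.06%) or D19 B (8.61%) and 0 without D3 A (9.86%), D5 A (9.69%), D5 B (9.25%) or D9 B (8.5%). DESeq2 called 2 members, both lower, beside 12.5% of all genes higher and 11.1% lower. Between progression and onset 0 members were called by edgeR (0% of all genes higher and 0% lower) and 0 by DESeq2 (0.0161% higher and 0.0402% lower). By edgeR 43 of 45 values were below 0, beside 5956 of 12432 genes, and 15 had an unadjusted p under 0.05, beside 701 of 12432 genes.

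In BEC-like cells the members had higher values under DDC, but 0 of 46 passed edgeR, against 0.0533% of all genes called higher and 0.2% called lower, and 0 passed DESeq2, against 1.77% and 1.46%. Values above 0 were found for 43 of 46 members, beside 7714 of 15010 genes, and the median was 1.47 against 0.02 over all genes. An unadjusted edgeR p under 0.05 was found for 5 of 46 members, a lower share than the 2682 of 15010 genes. Mki67 was at 15.7 CPM in D0 A, at 7.57 and 70.9 in D3 B and D5 B, and between 45.5 (D25 B) and 106 (D19 A) in the 6 progression libraries, a change of 2.10 ± 0.97 (edgeR adjusted p = 0.289). Birc5 was at 5.00 CPM in D0 A, at 2.52 and 51.9 in D3 B and D5 B and between 20.9 and 40.1 in progression, a change of 2.38 ± 1.15 (edgeR adjusted p = 0.306). Both genes were lower in D3 B than in D0 A and higher in every later library. The share of cycling cells was also lowest in D0 A and D3 B. Both genes are used in the call, so this likeness was built in and adds no separate evidence. The count was 2 without D3 B, beside 0.581% of all genes higher.

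Between onset and progression the 2 roles had medians of opposite sign in BEC-like cells. All 25 mitotic members had values above 0 (median 0.72), whereas 15 of 19 replication members had values below 0 (median -0.15), and 0 of 46 passed edgeR (0% of all genes higher and 0% lower), 3 having an unadjusted p under 0.05. DESeq2 also called 0 (0.00666% higher and 0.0466% lower). The 3 by edgeR were Nusap1 (1.67 ± 0.48), Kif11 (1.29 ± 0.41) and Plk1 (1.77 ± 0.58), each with an edgeR adjusted p of 0.938. Over all genes 770 of 15010 had an unadjusted edgeR p under 0.05, a share near that of the members. Mcm5 was at 13 CPM in D3 B, 48.6 in D5 B, 22.9 in D9 A, 22.6 in D9 B, 12.2 in D19 A, 7.77 in D19 B, 17.0 in D25 A and 31.5 in D25 B, so that D5 B was the highest. Onset is D3 B and D5 B alone here, both of protocol B, and the count was 1 without D5 B, beside 0.0133% of all genes higher.

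Kupffer-like cells had 0 of 44 members called between DDC and D0 by edgeR (1.12% of all genes higher, 1.95% lower, 7 members with an unadjusted p under 0.05) and 0 between progression and onset (0% higher, 0.0238% lower, 4 with an unadjusted p under 0.05). DESeq2 called 0 in both as well, where 2.71% of all genes were higher and 3.26% lower under DDC, and 0.143% higher and 0.0951% lower in progression. In D0 A, their single D0 library, 330 of 445 Kupffer-like cells lay in cluster 14, whereas in D9 A 1269 of 1693 lay in cluster 8. Between progression and onset 40 of 44 values were above 0 with a median of 0.62. Cdk1 changed by 1.09 ± 0.45 (edgeR adjusted p = 0.727) and Mki67 by 0.82 ± 0.39 (edgeR adjusted p = 0.799). Macrophage-like cells had 0 of 44 called in either comparison by edgeR (1.94% of all genes higher and 2.31% lower under DDC, 0.0723% higher and 0.0542% lower in progression), with 3 and 0 members at an unadjusted p under 0.05, and 0 by DESeq2 (2.97% higher and 4.22% lower, then 0.922% and 0.497%). LSEC-like cells had 0 of 41 called in either comparison by edgeR (0.0543% higher and 0.0724% lower under DDC, 0.00905% higher and 0.0362% lower in progression), with 1 member at an unadjusted p under 0.05 in each, and 0 by DESeq2 (0.969% higher and 0.57% lower, then 0.57% and 0.118%). Without D25 B the count by edgeR under DDC was 1, beside 0.0361% of all genes lower. Their medians under DDC were -0.28 in Kupffer-like, -0.30 in macrophage-like and 0.02 in LSEC-like cells.

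**Figure D5:**
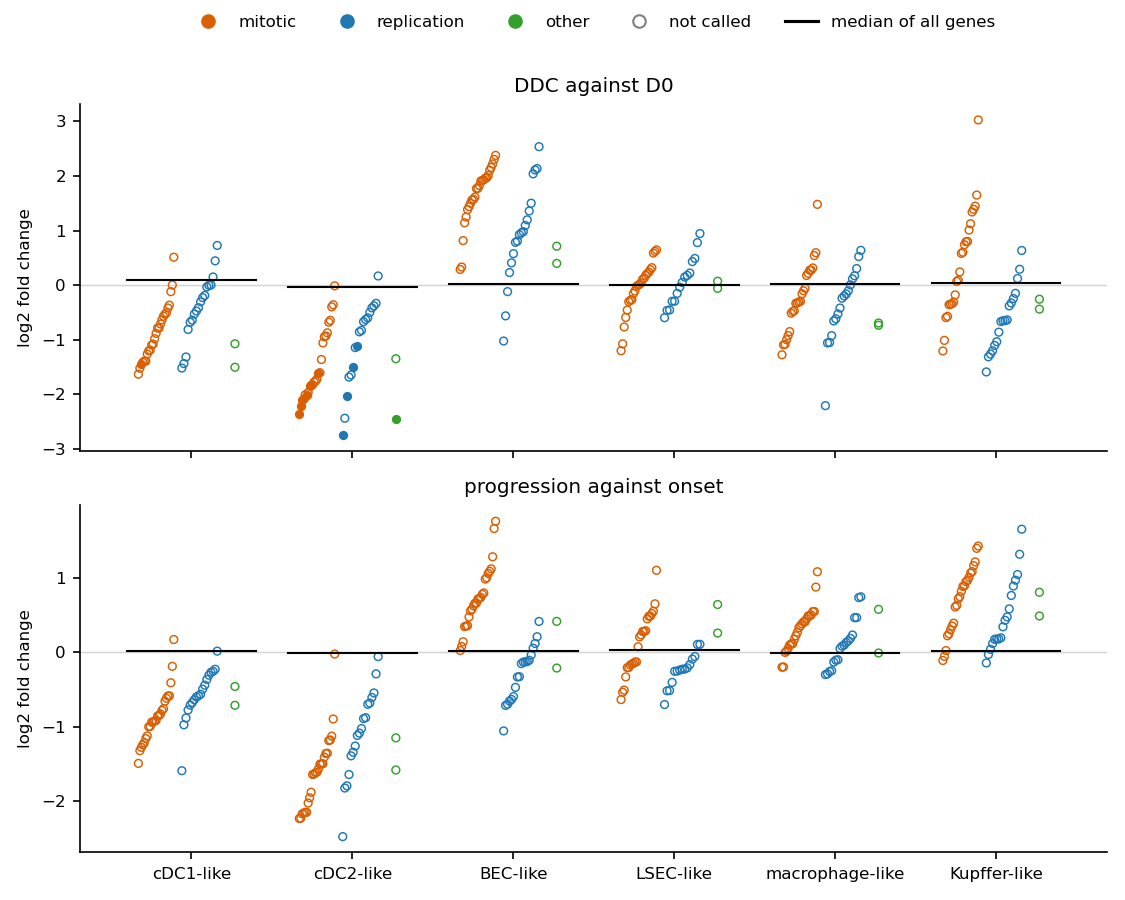
Log2 fold change by edgeR of each tested member in 6 cell types, for DDC against D0 (top) and progression against onset (bottom), coloured by role, with filled points for members called at an adjusted p of 0.05 and a black line at the median of all genes. Filled points are found in cDC2-like cells (12) and cDC1-like cells (1) under DDC, and the median lies at -1.36 in cDC2-like and 1.47 in BEC-like cells.

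Of 47 other cell cycle genes, which set entry into and exit from the cycle, 45 were tested in cDC1-like and 42 in cDC2-like cells. Under DDC 5 rose and 3 fell in cDC1-like cells, next to the 13.2% of all genes called higher and 11.5% called lower. Ccnd2, a D-type cyclin of cycle entry, rose by 1.78 ± 0.34 (edgeR adjusted p = 0.00642, from 20.8 CPM in D0 B to means of 98.4 at onset and 79.7 in progression). Cdkn1a (p21, a kinase inhibitor) rose by 1.44 ± 0.32 (edgeR adjusted p = 0.0107) and Lin54 (a DREAM subunit) by 1.35 ± 0.29 (edgeR adjusted p = 0.00937). Gmnn (geminin, which blocks repeated licensing) fell by 1.26 ± 0.30 (edgeR adjusted p = 0.0127), Cdkn2c (p18, a kinase inhibitor) by 1.11 ± 0.36 (edgeR adjusted p = 0.0400) and E2f4 (an E2F of the DREAM complex) by 0.94 ± 0.29 (edgeR adjusted p = 0.0340). Cdkn1a and Cdkn2c, both kinase inhibitors, had changes of opposite sign. The shares of these genes called in cDC1-like cells were no higher than those over all genes, and so do not set them apart. The 2 clusters of the type are also unevenly spread over D0 B and the DDC libraries, and no fit to 1 of them was made.

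In cDC2-like cells 3 of the 42 rose and 6 fell, next to 3.71% and 6.39% of all genes. Ccnd2 rose by 1.21 ± 0.29 (edgeR adjusted p = 0.0236, from 77.4 CPM in D0 B to means of 148 at onset and 219 in progression), Cdk6 (the partner of D-type cyclins) by 1.03 ± 0.31 (edgeR adjusted p = 0.0498) and Btg2 (an antiproliferative gene) by 1.02 ± 0.31 (edgeR adjusted p = 0.0491). Fbxo5 (an inhibitor of the anaphase-promoting complex) fell by 2.51 ± 0.61 (edgeR adjusted p = 0.0236), Cdc25c (a phosphatase that activates Cdk1) by 2.26 ± 0.69 (edgeR adjusted p = 0.0493) and Cdkn3 (a phosphatase acting on Cdk proteins) by 2.18 ± 0.54 (edgeR adjusted p = 0.0262). In cluster 3 alone none of these 6 passed, with Ccnd2 at 0.51, Btg2 at 0.46, Fbxo5 at -1.43 and Cdc25c at -1.38, while Cdk6 (-0.14) and Cdkn3 (1.64) changed sign. Over 16 alternatives Cdc25c passed in 3, Btg2 in 7 and Cdk6 in 8, and over 14 alternatives in cDC1-like cells Cdkn2c passed in 5 and E2f4 in 8. In Kupffer-like cells 1 of 40 passed, a share near the 1.95% of all genes called lower (1.12% higher), as Cdkn1b (p27, a kinase inhibitor) fell by 0.95 ± 0.21 (edgeR adjusted p = 0.0326), in a type whose 2 clusters are unevenly spread over D0 A and the DDC libraries. None passed in BEC-like, LSEC-like or macrophage-like cells under DDC by edgeR, where 7, 4 and 9 had an unadjusted p under 0.05. Over all genes this held for 2682 of 15010 in BEC-like and 1200 of 11048 in LSEC-like cells.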

How the data were processed

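UMI counts per gene and barcode were deposited by the authors as matrices made with kallisto on GRCm38, per the processing notes of the labels, and filters before deposit are not given in the sources used here. Barcodes with at least 1500 UMIs were kept and thinned once to 1500 UMIs with a fixed seed. Clusters (Leiden resolution 1.5) were made without the members, the other cell cycle genes and genes correlated with the 4 call genes. T and NK cells were clustered again at resolution 1. Clusters were named from marker lists, by thresholds set after the clusters had been seen. Scrublet doublets were kept and removed in an alternative, and the automatic threshold of D5 B moved with numerical rounding, so that its doublet share is approximate. Shares were compared over libraries with at least 50 cells of a type by exact two-sided permutation tests, STOP being left out of all tests of the diet. Summed counts were tested with edgeR 4.0.16 (quasi-likelihood, TMM, filterByExpr, protocol as a term) and with DESeq2 1.42.0 as an alternative, at an adjusted p of 0.05, and the scripts were checked on simulated data. Members, lists and comparisons were chosen with earlier results of these data known. Genes were named as the 4 call genes, the largest 5 called changes per direction, the 3 highest and 3 lowest members per role by level and by share of UMIs in cycling cells, and up to 3 called regulators per direction. Cenpa, Kif23, Cenpf, Prc1 and Tpx2 by cell type, the promoter examples and members named outside this rule were chosen after their values were seen.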

Additional observations from a re-analysis of the deposited data

Results flagged for a closer look

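Of 35 groups of 4 to 10 libraries, 5 held a library that stood apart by Dixon's criterion, which chance gives in about 5% of groups. In BEC-like cells of progression D19 A had 6.58% cycling cells (5 of 76), against 2.03% to 3.39% in the other 5 libraries. In LSEC-like cells of progression D25 B had 2.87% (6 of 209), against 0% to 0.670% in the other 5. In CEC-like cells of progression D9 A had 0.11%, which is 1 cell of 907, against 0% in the other 3, where the count of 0 allows up to 0.499% to 3.26%. In cDC2-like cells of progression Mki67 was at 138 CPM in D9 A, against 38.1 to 57.5 in the other 4 libraries, and Rrm2 was at 13 CPM in D25 B, against 1.92 to 4.51. What set these libraries apart was not tested.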

How the results depend on the processing

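No paired analysis was possible between conditions because the labels give the libraries no replicate numbers, and A and B are isolation protocols, whereas types were compared within the same libraries. With at least 5 UMIs per call 2 cell types differed from the other cells in place of 5, with types of at least 20 cells per library 8, and with 1 library left out 3 to 4. The 13 members called by edgeR under DDC over all types became 4 without TMM, 53 without the filter on low counts and 2 with at least 20 cells. In the same fits the percentage of all genes called in the members' direction is given in brackets. For cDC1-like cells 1 call became 2 with DESeq2 (11.1%), 0 without TMM (2.88%), 18 without the filter (7.39%), 0 without doublets (6.87%), 0 within protocol B (6.65%, chosen after seeing the data) and 0 to 20 with 1 library left out. For cDC2-like cells 12 calls became 4 without TMM (2.29%), 24 without the filter (4.41%), 1 with at least 20 cells (0.631%), 0 within protocol B (1.93%), 0 within cluster 3 (0.157%; the last 2 chosen after seeing the data) and 3 to 21 with 1 library left out. For BEC-like cells 0 became 6 without the filter (1.36%) and 0 to 2 with 1 library left out, for LSEC-like cells 1 (0.508%) and 0 to 1, and for Kupffer-like cells 4 without the filter (2.3%). Between progression and onset 0 became 11 with DESeq2, all in cDC2-like cells (0.7%), and 61 without the filter, with 17 in cDC1-like (0.573%), 36 in cDC2-like (1.2%) and 8 in Kupffer-like cells (0.703%), and with 1 library left out it was 0 to 14 in cDC2-like and 0 to 1 in BEC-like cells. The cause of these shifts was not tested. Signs turned for the share under DDC in cDC1-like cells (0.335 with at least 5 UMIs, 0.894 without thinning) and LSEC-like cells (-0.121 with 4 other call genes, -0.847 at 3000 UMIs, -0.00402 to 0.646 with 1 library left out), for BEC-like cells in progression (-0.500 at Leiden resolution 1), and for Mki67 in cDC2-like cells under DDC (0.022 with DESeq2, 0.39 without TMM, 0.055 without the filter, 0.10 within protocol B, -0.17 to 0.21 with 1 library left out). Within cluster 3 signs also turned for Rrm2 (0.29), Ccnb2 (0.12), Birc5 (0.67), Cdkn3 (1.64) and Cdk6 (-0.14) under DDC, with wide SEs of 0.37 (Cdk6) to 1.63 (Cdkn3). Requiring at least 2 UMIs gave STOP shares of 3.38% in CD8 T-like, 4.55% in cDC1-like and 4.19% in cDC2-like cells, and leaving out thinning gave 7.29% in BEC-like, 3.48% in CD8 T-like, 2.18% in LSEC-like, 8.09% in NK or ILC1-like, 11.7% in cDC1-like, 7.85% in cDC2-like and 11.9% in stellate or fibroblast-like cells. The number of cells limits what the shares of small types can show: 0 of 56 cDC2-like cells in D25 A allows up to 5.36%.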

Other observations

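Of the 179 unnamed cycling cells 57 were in STOP, among 1722 unnamed cells. The ratio of replication to mitotic UMIs was 0.371 in those of STOP and 0.437 in unnamed cycling cells of D0 A. Cells outside the call with at least 3 UMIs summed over the replication members made up 6.50% of NK or ILC1-like, 6.00% of cDC1-like and 1.87% of LSEC-like cells outside the call.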
